A study of Mus musculus with 39 samples.

Results

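Messenger RNA of 10 genes that digest, carry and metabolise dietary sugar was followed along the gut of 2 inbred mouse strains: the disaccharidase genes Sis, Lct, Treh and Mgam, the hexose carrier genes Slc5a1, Slc2a2, Slc2a5 and Slc2a7, and the hexose metabolism genes Khk and G6pc. They were chosen by name, with earlier results of these data known, and all 10 were found among the 34600 entries of each deposited table. The data are 39 bulk RNA libraries from 13 mice, 6 BALB/cJ and 7 C57BL/6J, each sampled once in the duodenum/jejunum, the ileum and the colon. Both strains are plain inbred lines with no allele, treatment or diet named in the labels, which give strain, tissue and a mouse number but no sex, age or batch. Values are given as TPM, a transcript's share of its library corrected for transcript length, so levels of different genes can be set side by side.

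Starch and disaccharides are cut into single sugars at the brush border, the microvillar face of the absorptive enterocyte, because only single sugars can be carried across it. Sucrase-isomaltase and maltase-glucoamylase finish the digestion of sucrose and starch, lactase splits milk sugar and trehalase splits the sugar of fungi and insects. SGLT1, the Slc5a1 product, takes up glucose and galactose with sodium, GLUT5 (Slc2a5) takes up fructose, and GLUT2 (Slc2a2) carries all 3 sugars out on the blood side of the cell. Ketohexokinase (Khk) starts fructose breakdown, glucose-6-phosphatase (G6pc) releases free glucose from its phosphate, and these activities are known to be strongest in the upper small intestine.

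The promoters of 4 members are shown because, among the 4 most abundant members, Sis and Lct had colon means of at most 10.2 TPM while Mgam and Slc5a1 kept means of 68.2 to 274 TPM there. Each is the RefSeq stretch on GRCm38.p6 from 250 bases before to 50 bases after the gene's start, written 5′ to 3′ on the gene's strand. Capitals mark 3 motifs on either strand. The first, TTTAT, is the core bound by CDX factors of the intestinal epithelium. The second, GTTAAT, is a partial site of the factor HNF1. The third, AGATAA, is a site of GATA factors.
Sis, chr3:72967814-72968113, minus strand: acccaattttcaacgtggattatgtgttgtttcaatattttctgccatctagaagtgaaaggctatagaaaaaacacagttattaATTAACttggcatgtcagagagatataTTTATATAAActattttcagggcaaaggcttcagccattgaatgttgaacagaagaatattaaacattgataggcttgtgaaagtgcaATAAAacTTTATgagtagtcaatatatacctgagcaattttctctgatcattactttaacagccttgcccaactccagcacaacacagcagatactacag
Lct, chr1:128328269-128328568, minus strand: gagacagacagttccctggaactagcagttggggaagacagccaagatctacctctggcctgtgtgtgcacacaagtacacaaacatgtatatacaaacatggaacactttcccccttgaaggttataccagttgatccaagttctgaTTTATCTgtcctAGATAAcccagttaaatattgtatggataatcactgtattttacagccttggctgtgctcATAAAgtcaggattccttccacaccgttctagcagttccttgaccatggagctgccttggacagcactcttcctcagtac
Mgam, chr6:40628581-40628880, plus strand: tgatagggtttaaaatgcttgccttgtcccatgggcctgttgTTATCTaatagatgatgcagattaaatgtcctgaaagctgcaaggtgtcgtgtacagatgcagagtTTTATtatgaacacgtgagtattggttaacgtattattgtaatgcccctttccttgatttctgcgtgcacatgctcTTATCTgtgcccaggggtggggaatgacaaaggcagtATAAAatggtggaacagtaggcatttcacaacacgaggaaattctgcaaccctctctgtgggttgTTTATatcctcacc
Slc5a1, chr5:33103969-33104268, plus strand: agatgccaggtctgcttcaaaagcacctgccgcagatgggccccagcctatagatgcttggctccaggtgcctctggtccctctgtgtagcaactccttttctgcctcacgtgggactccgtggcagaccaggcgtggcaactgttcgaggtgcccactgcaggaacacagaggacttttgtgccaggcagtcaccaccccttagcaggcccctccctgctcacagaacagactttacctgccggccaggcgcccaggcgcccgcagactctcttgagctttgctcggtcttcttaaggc
The Sis stretch held 4 matches to the CDX core and 1 to the HNF1 site. Lct held 2 CDX and 2 GATA matches and Mgam held 3 CDX and 2 GATA matches. None of the 3 motifs was in the Slc5a1 stretch, in which 60.3% of bases are G or C, against 34% for Sis. Across all 10 members, 4 promoters held the CDX core, 3 the HNF1 site and 2 the GATA site, against 40.0%, 7.10% and 11.2% of 32851 mouse promoters of the same length. The TATA box TATAAA contains ATAAA, the CDX core read on the other strand, and CDX matches 29 bases before the start of Mgam and 28 before that of G6pc lie in such a box, as does 1 of the 4 Sis matches, 133 bases before the start. In Lct the match TTTATCT joins a CDX core and a GATA site read on the other strand. A match says only that these letters are in the stretch, and no binding was measured.

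Whether each library carried its labelled segment was checked first with 2 ileal markers, Fabp6, the ileal bile acid binding protein, and Slc10a2, and with Tmprss15, the duodenal enteropeptidase. In C57BL/6J mouse 2 Fabp6 went against both labels, with 6111 TPM in the library labelled duodenum/jejunum and 22.1 TPM in the one labelled ileum. Slc10a2 also went against both, with 86.7 and 4.10 TPM. The other 6 C57BL/6J mice had 2.21 to 7.25 TPM of Slc10a2 in the duodenum/jejunum and 64.6 to 183 TPM in the ileum. Tmprss15 went against the ileum label only: it had 51.2 TPM there, and its 39.2 TPM in the library labelled duodenum/jejunum lay within the 12.2 to 57.9 TPM of the other 6 C57BL/6J mice. Gkn3, a marker of gastric and Brunner glands, followed the labels, with 574 and 3.19 TPM. The other 6 C57BL/6J mice had 3.12 to 32 TPM of Fabp6 in the duodenum/jejunum and 3766 to 8189 TPM in the ileum, and BALB/cJ mice 2.99 to 96.0 and 4884 to 11144 TPM. Tmprss15 stayed at or below 0.0304 TPM in the other C57BL/6J ilea. Both libraries of mouse 2 were kept under their labels, and calls and values that move without that mouse are given beside the results. Within the duodenum/jejunum Gkn3 ran from 1.54 to 716 TPM in BALB/cJ and from 7.62 to 651 TPM in C57BL/6J. The place of sampling within the segment is not given, and its part in this spread was not tested. The labels do not say whether whole wall or mucosa was taken. In bulk tissue RNA, fewer cells of a type and less RNA per cell cannot be told apart.

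All 10 genes were highest in the duodenum/jejunum, lower in the ileum and lowest in the colon. Summed, they made up a median of 0.953% of a BALB/cJ and 0.757% of a C57BL/6J duodenum/jejunum library, 0.472% and 0.411% in the ileum, and 0.0339% and 0.0376% in the colon. In BALB/cJ every member was higher in the duodenum/jejunum than in the ileum, 10 of 10 called by limma at an adjusted p under 0.05, where 7.63% of 17126 genes were higher. These shares of all genes depend on the scaling: under RLE scaling, which brings the median ratio of gene levels between libraries to 1, 17.5% were higher here, and 29.5% against the colon in BALB/cJ duodenum/jejunum, and the members called were again 10 of 10. The median difference of the members was 1.60 on the log2 scale, against -0.20 for all genes tested. In C57BL/6J 8 of 10 were higher, with 5.79% of genes higher, and without mouse 2 it was 10 of 10. The 2 not called with all mice were Mgam (adjusted p 0.137 in limma) and G6pc (0.0771). The calls for Sis and G6pc in C57BL/6J turned on the mouse as a block, since the 3 tissues come from the same animals: the adjusted p for Sis was 0.0419 without and 0.0577 with the block, and for G6pc 0.0771 without and 0.0376 with it. Sis passed in 4 and G6pc in 3 of 17 alternative settings (adjusted p 0.00327 to 0.126 and 0.00789 to 0.272), and for both the lowest value came without mouse 2.

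**Figure D1:**
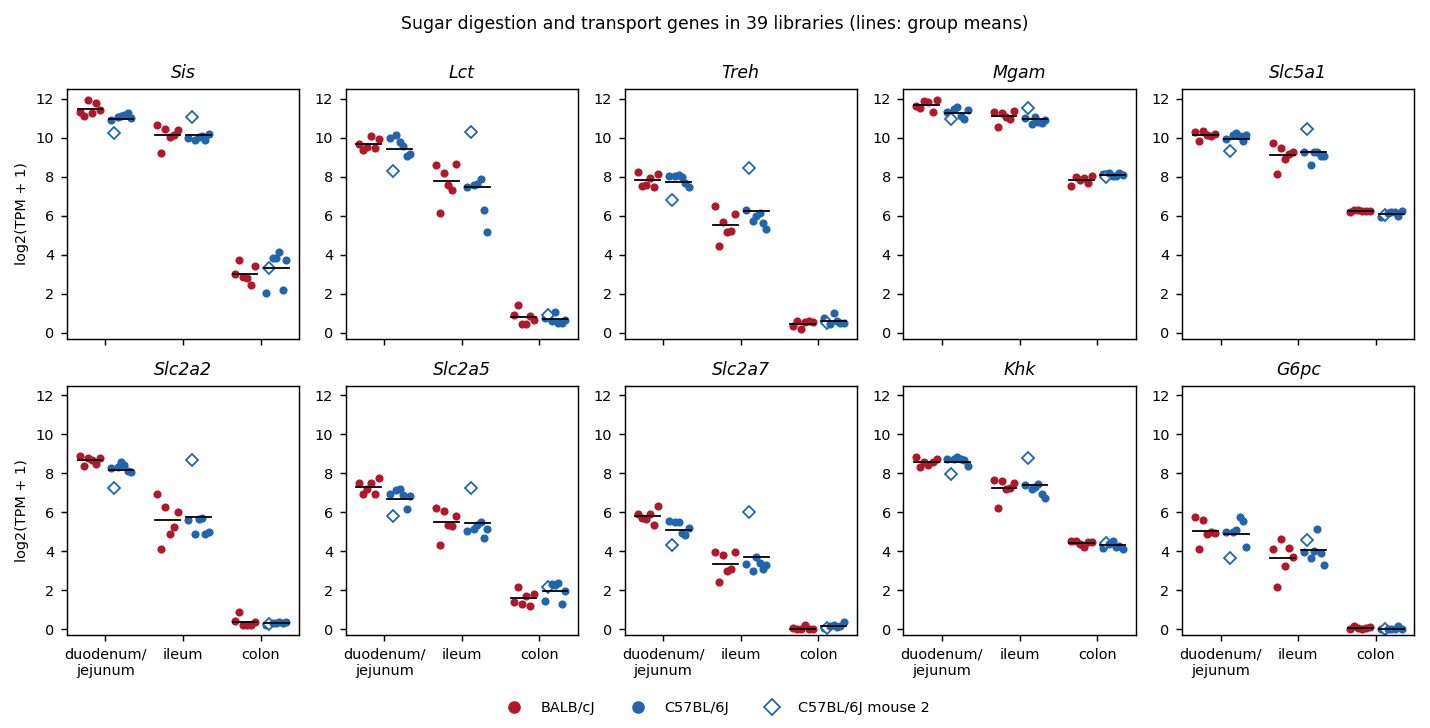
Level of each gene as log2(TPM + 1) in every library, by tissue and strain, with points for mice, black lines for group means and open diamonds for C57BL/6J mouse 2. All 10 genes fall toward the colon, and the diamonds lie low in the duodenum/jejunum and high in the ileum.

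Against the colon the difference was called for 10 of 10 members in both strains and from both small intestinal segments. No member overlapped between small intestine and colon, but the share of all genes without overlap was not counted. The shares of all genes called higher than in the colon were 14.5% in the duodenum/jejunum and 15.8% in the ileum of BALB/cJ, and 15.3% and 15.2% in C57BL/6J. With 6 groups ranked by mean, both duodenum/jejunum groups stood above both ileum groups and both ileum groups above both colon groups for every member. Neighbours in that order overlapped at each step except from the lower ileum group to the higher colon group. Epithelial content was not measured directly, and its part in this order was not tested. As a sum, the 11 enterocyte and epithelial markers, enterocyte genes such as Apoa4 and Fabp2 among them, were lowest in the colon. A sum weighs the most abundant genes most, and it does not show that each marker was lowest there. They summed to 25058 to 41299 TPM in BALB/cJ duodenum/jejunum, 10964 to 35424 in the ileum and 5668 to 6145 in the colon. In C57BL/6J the sums were 24176 to 34616, 14823 to 44031 and 6061 to 6276 TPM, and none of the 11 had a mean under 1 TPM in any group. The 5 goblet cell markers went the other way, with median sums of 6364, 9522 and 18466 TPM in BALB/cJ and 5884, 9225 and 20500 TPM in C57BL/6J.

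Among the disaccharidases, Sis (chr3:72888557-72967863, GRCm38) and Mgam (chr6:40628831-40769123) were the most abundant members. Sis had 2609, 2245, 3946, 2476, 3531 and 2766 TPM in the duodenum/jejunum of BALB/cJ mice 1 to 6 in turn, and a lowest, median and highest of 1197, 2158 and 2518 TPM over the 7 C57BL/6J mice. In the ileum Sis ran from 607 through a median of 1231 to 1641 TPM in BALB/cJ and from 940 through 1061 to 2145 TPM in C57BL/6J, the highest of these being mouse 2. The colon held 7.60 ± 2.90 TPM of Sis in BALB/cJ and 10.2 ± 5.15 TPM in C57BL/6J (SD, n = 6 and 7). Duodenum/jejunum was thus 2.46-fold above ileum in BALB/cJ by means, and 1.72-fold in C57BL/6J or 2.12-fold without mouse 2. The BALB/cJ segments did not overlap, and neither did those of the 6 other C57BL/6J mice.

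Mgam was flatter along the gut. It had 3350 ± 549 TPM in BALB/cJ and 2504 ± 442 TPM in C57BL/6J duodenum/jejunum, 2228 ± 438 and 2046 ± 423 TPM in the ileum, and 228 ± 29.4 and 274 ± 14.3 TPM in the colon (SD, n = 6 and 7). The 2 small intestinal segments overlapped in both strains. The log2 difference between duodenum/jejunum and ileum was 0.60 (SE 0.14, adjusted p 0.000611 in limma) in BALB/cJ and 0.29 (SE 0.13, adjusted p 0.137) in C57BL/6J, or 0.44 (SE 0.12, adjusted p 0.00813) without mouse 2. Mgam2-ps, a near copy of Mgam listed as a pseudogene, had 98.1 to 158 TPM in the means of all 6 groups, and reads of the 2 copies can be exchanged, so the colon level of Mgam is uncertain.

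Mgam's share of the summed Mgam and Sis TPM was higher in each more distal segment, 53.5% ± 7.02 in the duodenum/jejunum, 65.7% ± 3.45 in the ileum and 96.8% ± 0.956 in the colon of BALB/cJ (SD, n = 6). In C57BL/6J the shares were 55.1% ± 6.05, 63.6% ± 3.36 and 96.4% ± 1.84 (SD, n = 7). No colon library was below 94.0% and no small intestinal library above 71.1%, so the colon stood apart in both strains.

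**Figure D2:**
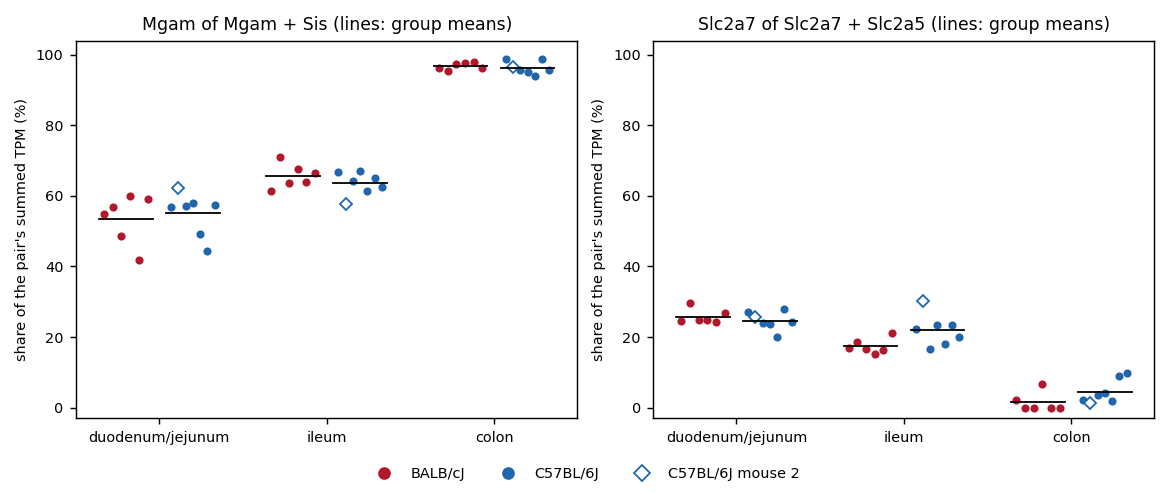
Share of Mgam in the summed TPM of Mgam and Sis (left) and of Slc2a7 in that of Slc2a7 and Slc2a5 (right), in percent, with a point per library, black lines for group means and open diamonds for C57BL/6J mouse 2. In the colon Mgam makes up 94.0% to 98.9% of its pair, and Slc2a7 at most 9.67% of its own.

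Lct (chr1:128284756-128328318) had 820, 671, 739, 1105, 722 and 984 TPM in BALB/cJ duodenum/jejunum, and 317 to 1119 TPM with a median of 760 TPM in C57BL/6J. Its ileal level spread widely, from 71.0 to 405 TPM in BALB/cJ and from 34.8 to 233 TPM in 6 C57BL/6J mice, with 1258 TPM in mouse 2. Its log2 difference between duodenum/jejunum and ileum was 1.93 (SE 0.46, adjusted p 0.00108 in limma) in BALB/cJ and 1.96 (SE 0.43, adjusted p 0.00163) in C57BL/6J, or 2.62 without mouse 2. The colon mean was 0.782 TPM in BALB/cJ and 0.667 TPM in C57BL/6J. Treh (chr9:44673233-44686305) was lower than Lct, with 232 ± 53.7 and 222 ± 61.3 TPM in the duodenum/jejunum, 49.9 ± 25 and 101 ± 113 TPM in the ileum and 0.398 ± 0.152 and 0.548 ± 0.231 TPM in the colon of BALB/cJ and C57BL/6J (SD, n = 6 and 7). The C57BL/6J ileum mean was 58.3 TPM without mouse 2. The highest colon library had 1.68 TPM of Lct and 1.01 TPM of Treh.

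The glucose carrier gene Slc5a1 (chr5:33104219-33162870) resembled Mgam and Khk in keeping part of its level downstream. It had 1149 ± 139 TPM in BALB/cJ and 1015 ± 187 TPM in C57BL/6J duodenum/jejunum, 586 ± 193 and 671 ± 327 TPM in the ileum, and 75.3 ± 2.02 and 68.2 ± 5.38 TPM in the colon (SD, n = 6 and 7). The ileum of C57BL/6J mouse 2 had 1390 TPM against 391 to 622 TPM in the other 6, whose mean was 551 TPM. The log2 difference between duodenum/jejunum and ileum was 1.04 in BALB/cJ (SE 0.20, adjusted p 8.95e-05 in limma) and 0.68 in C57BL/6J (SE 0.18, adjusted p 0.0113), or 0.97 without mouse 2. Without C57BL/6J mouse 3, 4 or 7 the C57BL/6J call was lost, with adjusted p 0.082, 0.0575 and 0.0566, and over all 17 alternatives the adjusted p ran from 6.13e-06 to 0.082.

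Slc2a2 (chr3:28697903-28731359) had the steepest fall between the small intestinal segments. It had 470, 332, 449, 417, 356 and 444 TPM in BALB/cJ duodenum/jejunum against 123, 16.6, 76.1, 28.7, 37.3 and 63.7 TPM in the ileum of the same mice. In C57BL/6J it had 314, 153, 326, 390, 347, 275 and 273 TPM in the duodenum/jejunum of mice 1 to 7 and 48.4, 418, 29, 49.1, 51.7, 28.6 and 31.1 TPM in the ileum. The ileum was below the duodenum/jejunum in 6 of 6 BALB/cJ mice and in 6 of 7 C57BL/6J mice, mouse 2 being the exception. The log2 difference was 3.09 (SE 0.41, adjusted p 3.87e-07 in limma) in BALB/cJ and 2.38 (SE 0.38, adjusted p 3.84e-05) in C57BL/6J, or 3.02 without mouse 2. In the colon Slc2a2 averaged 0.335 TPM in BALB/cJ and 0.254 TPM in C57BL/6J.

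The fructose carrier gene Slc2a5 (chr4:150119283-150144169) and Slc2a7 (chr4:150148972-150168482), which encodes the related carrier GLUT7, lie 4802 bases apart on the same strand. Slc2a5 had 163 ± 38.8 and 109 ± 33.8 TPM in the duodenum/jejunum, 48.2 ± 19.9 and 51.2 ± 43.6 TPM in the ileum and 2.11 ± 0.827 and 3.13 ± 1.12 TPM in the colon of BALB/cJ and C57BL/6J (SD, n = 6 and 7). The C57BL/6J ileum mean was 34.9 TPM without mouse 2. Slc2a7 had 59.4, 51.1, 48.9, 60.0, 39.7 and 80.3 TPM in BALB/cJ duodenum/jejunum, and 45.5, 19, 44.4, 44.5, 29.5, 27.6 and 36.1 TPM in C57BL/6J. In the ileum it had 10.2 ± 4.45 TPM in BALB/cJ and 17 ± 21.1 TPM in C57BL/6J, or 9.05 ± 1.84 TPM without mouse 2. In the colon Slc2a7 was listed at 0 in 4 of 6 BALB/cJ libraries, and the highest value in any colon library was 0.315 TPM. Slc2a7 made up 25.8% ± 2.10 of the pair in BALB/cJ and 24.7% ± 2.60 in C57BL/6J duodenum/jejunum, and 17.4% ± 2.11 and 22.1% ± 4.45 in the ileum (SD, n = 6 and 7). In BALB/cJ the segments did not overlap in this share, at 24.3% to 29.7% against 15.2% to 21.1%, and in C57BL/6J they did. Within a mouse the share was lower in the ileum in both strains except in C57BL/6J mouse 2, where it was 25.8% in the duodenum/jejunum and 30.3% in the ileum.

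The fructose kinase gene Khk (chr5:30921431-30931248) had 385 ± 51.3 and 389 ± 73.9 TPM in the duodenum/jejunum, 158 ± 46.7 and 189 ± 116 TPM in the ileum and 20.7 ± 1.66 and 18.9 ± 1.91 TPM in the colon of BALB/cJ and C57BL/6J (SD, n = 6 and 7). The C57BL/6J ileum mean of Khk was 146 TPM without mouse 2. G6pc (chr11:101367561-101377903) was the lowest member in the duodenum/jejunum, with 16.8 to 53.7 TPM in BALB/cJ and 11.7 to 53.1 TPM in C57BL/6J, and 3.59 to 23.9 and 8.91 to 34.9 TPM in the ileum. In the colon G6pc did not exceed 0.149 TPM in any library, and it was listed at 0 in 1 BALB/cJ and 2 C57BL/6J libraries. Slc2a2, Khk and G6pc are also liver genes. A list of 6 hepatocyte markers summed to 9.16 to 14 TPM in BALB/cJ and 6.53 to 10.2 TPM in C57BL/6J duodenum/jejunum. The sums were 13.2 to 51.5 and 6.40 to 10.6 TPM in the ileum, and 45.2 to 68.3 and 21.6 to 42.7 TPM in the colon. The part of liver RNA in the levels of these genes was not tested.

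Set against the duodenum/jejunum of the same mouse, the ileum kept least of Slc2a2 and most of Mgam. The median share was 12.4% in BALB/cJ and 12.6% in C57BL/6J for Slc2a2, 18.5% and 27.3% for Slc2a7, 21.9% and 23.7% for Treh, and 27.9% and 30.8% for Slc2a5. It was 38.7% and 48.5% for Sis, 42.3% and 34.8% for Khk, 52.2% and 56.7% for Slc5a1, and 66.1% and 79.9% for Mgam. G6pc had 35.7% and 48.2%. For Lct the medians were 31% in BALB/cJ and 16.9% in C57BL/6J, within a range of 10.6% to 47.4% and, without mouse 2, of 6.07% to 30.6%, so the strains overlapped. All 10 genes were below 100% in 6 of 6 BALB/cJ and 6 of 7 C57BL/6J mice. In C57BL/6J mouse 2 the share was 148% for Mgam, the lowest of its 10 values, and 397% for Lct, the highest.

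**Figure D3:**
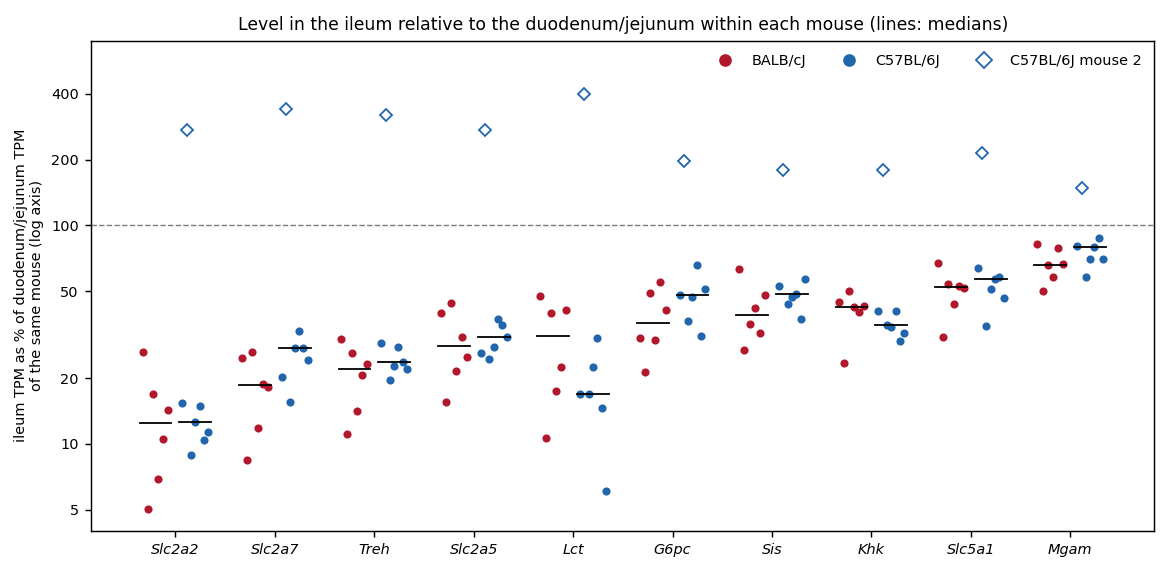
Ileum TPM as a percentage of duodenum/jejunum TPM in the same mouse, on a log axis, for each gene and strain, ordered by the BALB/cJ median, with black lines for medians over all mice of a strain. All mice lie under 100% except C57BL/6J mouse 2, shown as open diamonds at 148% to 397%.

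In the small intestine of BALB/cJ most of the lowest values came from 1 mouse. In the ileum BALB/cJ mouse 2 had the lowest value of all 10 genes, and it also had the lowest sum of the 11 epithelial markers, 10964 TPM against 35424 TPM in the highest library. In the BALB/cJ duodenum/jejunum mouse 2 was lowest for 7 members, but in the colon it was highest for 7. In the C57BL/6J ileum the lowest values were spread over mice 3, 6 and 7, with 3, 3 and 4 members. The epithelial score of the duodenum/jejunum library of BALB/cJ mouse 2 was also the lowest of the strain, a mean log2(TPM + 1) of 10.2 against 10.6 in the highest mouse, and the part of epithelial content in these values was not tested.

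In the duodenum/jejunum 9 of 10 members had a strain difference above 0, with a median of 0.34 against 0.0067 over all genes. That count rests on C57BL/6J mouse 2, which had the lowest C57BL/6J value of all 10 members. Without it Treh (-0.06), Khk (-0.10) and G6pc (-0.03) were below 0. An unadjusted p under 0.05 in limma was reached by 5 of 10, and the share of all genes that reached it was not counted. Of 10 members, 1 was called, Slc2a7, which was higher in BALB/cJ, where 9.5% of 15306 genes were called and 4.7% were higher. Slc2a7 differed by 0.69 on the log2 scale (SE 0.20, adjusted p 0.0453 in limma), and its values of 39.7 to 80.3 TPM in BALB/cJ and 19 to 45.5 TPM in C57BL/6J overlapped. This call passed in 7 of 19 alternative settings, with adjusted p from 0.0147 to 0.127, and without C57BL/6J mouse 2 the difference was 0.56 (adjusted p 0.0609). Leaving out BALB/cJ mouse 1, 2, 3, 4 or 6, or C57BL/6J mouse 5, 6 or 7, also ended it. With the score for position along the small intestine as a covariate it was 0.51 (adjusted p 0.127).

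The point estimates of Sis, Mgam, Slc2a2 and Slc2a5 were also above 0 in the duodenum/jejunum, but none passed the threshold. The difference was 0.51 for Sis (95% interval 0.14 to 0.89, adjusted p 0.0895 in limma), 0.42 for Mgam (0.12 to 0.72, adjusted p 0.0804), 0.51 for Slc2a2 (0.13 to 0.89, adjusted p 0.0978) and 0.61 for Slc2a5 (0.14 to 1.09, adjusted p 0.113). Without C57BL/6J mouse 2 these were 0.39, 0.37, 0.36 and 0.46, and none was called. For Khk the interval was -0.30 to 0.30 around a difference of 0.00, and for Slc5a1 it was -0.10 to 0.49 around 0.19. Lct (-0.28 to 0.80), Treh (-0.35 to 0.54) and G6pc (-0.53 to 0.87) were less well bounded. Without that mouse Lct was at 0.07, Treh at -0.06, Slc5a1 at 0.09, Khk at -0.10 and G6pc at -0.03. All 10 members overlapped between the strains, and the share of all genes that did so was not counted. None of the 11 epithelial markers was called. The 6 markers of proximal small intestine summed to 7566 to 11439 TPM in BALB/cJ and 4374 to 9599 TPM in C57BL/6J, none of them called; the part of position in these differences was not tested apart from the covariate.

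**Figure D4:**
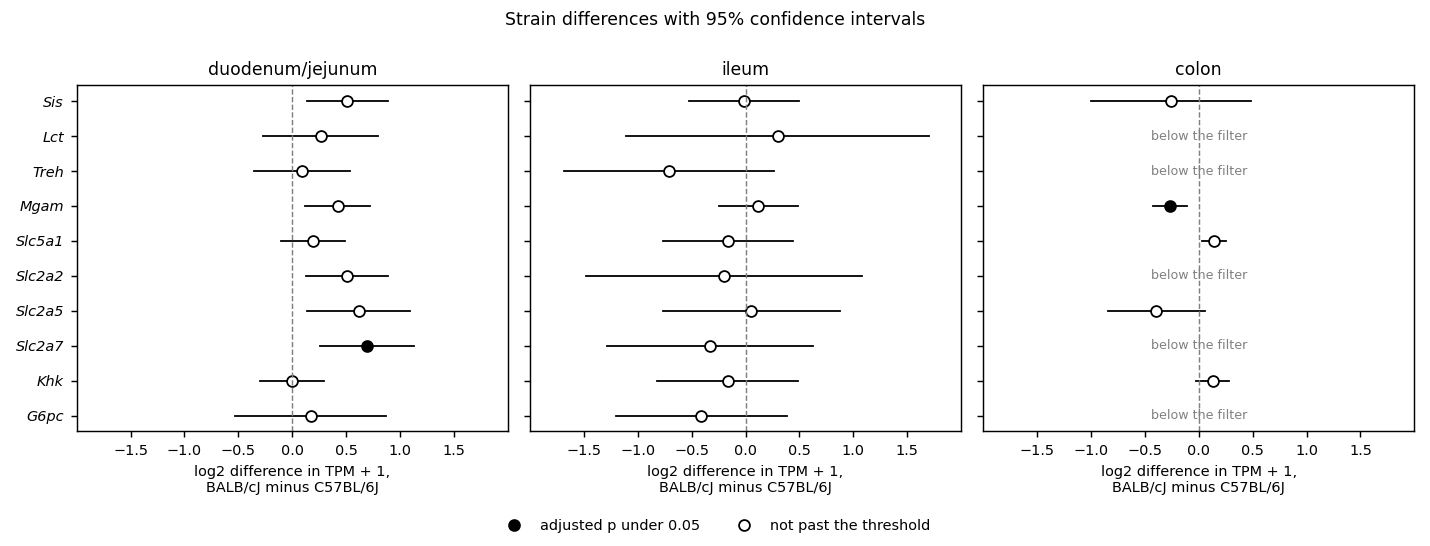
Difference in log2(TPM + 1) between BALB/cJ and C57BL/6J for each gene in the 3 tissues, with 95% confidence intervals from limma and filled points for an adjusted p under 0.05. Slc2a7 in the duodenum/jejunum (0.69) and Mgam in the colon (-0.27) pass, and 5 genes were below the filter on low values in the colon.

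In the ileum no member was called by limma, against 20.4% of 15537 genes, and 0 of 10 had an unadjusted p under 0.05. The differences ran from -0.71 for Treh (SE 0.45, adjusted p 0.275) to 0.30 for Lct (SE 0.66, adjusted p 0.773), with intervals as wide as -1.11 to 1.70 for Lct and -1.48 to 1.08 for Slc2a2. G6pc was at -0.41 (SE 0.37, adjusted p 0.441 in limma), Mgam at 0.12 and Slc2a5 at 0.055. Treh was at -0.33 and Lct at 0.77 without C57BL/6J mouse 2. The median of all genes was 0.17 higher in BALB/cJ, with 17.2% of genes called higher and 3.17% lower; under RLE scaling it was at -0.0071, with 5.87% higher and 5.73% lower. With the epithelial score as a covariate Treh was lower in BALB/cJ by 0.76 (adjusted p 0.0295), the only pass among 19 alternatives, whose adjusted p ran up to 0.486. Without C57BL/6J mouse 2 the signs of Sis, Slc5a1, Slc2a2, Slc2a7 and Khk turned to positive, at 0.03 to 0.29, and no member was called. All 4 erythroid markers were higher in BALB/cJ ileum, summing to 212 to 424 TPM against 72.9 to 150 TPM in C57BL/6J.

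In the colon 5 of 10 members passed the filter of at least 1 TPM in at least 6 libraries: Sis, Mgam, Slc5a1, Slc2a5 and Khk. Of these, 1 was called, Mgam, which was lower in BALB/cJ, where 25.3% of 15769 genes were called and 10.8% were lower. Mgam had 185, 252, 227, 242, 202 and 261 TPM in BALB/cJ and 286, 255, 290, 267, 259, 288 and 271 TPM in C57BL/6J. Only BALB/cJ mouse 6 reached into the C57BL/6J range. The log2 difference was -0.27 (SE 0.07, adjusted p 0.0151 in limma), and it passed in 16 of 18 alternatives (adjusted p 0.00617 to 0.063), the highest being with the epithelial score as a covariate (-0.24, adjusted p 0.063). Mgam2-ps had 131 ± 23.5 TPM in BALB/cJ and 158 ± 17.4 TPM in C57BL/6J colon (SD, n = 6 and 7), so the near copy was also lower by its mean.

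Slc5a1 in the colon had 72.5 to 77.7 TPM in BALB/cJ and 60.8 to 74.6 TPM in C57BL/6J, a difference of 0.14 (SE 0.05, adjusted p 0.0549 in limma). It passed without C57BL/6J mouse 4, 5 or 7, and its adjusted p ran from 0.0315 to 0.132 over 18 alternatives. Khk (0.13, adjusted p 0.223), Sis (-0.26, adjusted p 0.635) and Slc2a5 (-0.40, adjusted p 0.194) were not called. Marker RNA of other cell types also differed between the strains in the colon, and whether cell numbers did was not tested. The 3 adipocyte markers tested were all higher in BALB/cJ, the list of 4 summing to 52.1 to 162 TPM against 10.4 to 72.0 TPM in C57BL/6J. The 3 B cell markers were higher too, at 19.6 to 26.3 TPM against 5.39 to 9.79 TPM, as were 4 of 4 erythroid markers, at 167 to 475 TPM against 63.0 to 149 TPM. Of 11 epithelial markers Cdh1 was lower (-0.26) and Anpep higher (0.40) in BALB/cJ, and the part of these in the Mgam difference was not tested apart from the covariate.

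Whether a strain difference itself changed along the gut was tested as an interaction over all 39 libraries. For Mgam the strain difference in the duodenum/jejunum exceeded that in the colon by 0.69 (SE 0.18, adjusted p 0.0172 in limma), where 5.59% of 17126 genes were called. BALB/cJ was above C57BL/6J by means in the duodenum/jejunum, 3350 against 2504 TPM, and below it in the colon, 228 against 274 TPM. The call was lost without BALB/cJ mouse 3 (adjusted p 0.0527) or C57BL/6J mouse 6 (0.0507) and held in the other 15 of 17 alternatives, in which the lowest adjusted p was 0.0065. No other member was called between duodenum/jejunum and colon, and 0 of 10 were called between duodenum/jejunum and ileum or between ileum and colon, where 3.92% and 4.08% of genes were. Of these, 1 member in each had an unadjusted p under 0.05, Slc2a7 (1.02, adjusted p 0.142) and Mgam (0.39, adjusted p 0.25). The Slc2a7 value was 0.50 (adjusted p 0.277) without C57BL/6J mouse 2.

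Other genes of sugar handling were read from 6 lists, which were drawn up with earlier results of these data known. Of 16 genes of fructose, glycerol and glucose synthesis, 8 were higher and 2 lower in the duodenum/jejunum than in the ileum of BALB/cJ, and 8 and 1 in C57BL/6J, with list medians of 0.32 and 0.50 against -0.20 and -0.04 over all genes. Of all genes, 7.63% were higher and 35.5% lower in this comparison in BALB/cJ, and 5.79% and 5.54% in C57BL/6J. Without C57BL/6J mouse 2, 12 genes of this list were higher and 1 lower in C57BL/6J, where 9.84% and 10.7% of all genes were. Tkfc, the triokinase of fructose breakdown, had 158 ± 37.3 and 143 ± 22.3 TPM in the duodenum/jejunum, 71.6 ± 20.7 and 93.2 ± 35.9 TPM in the ileum and 6.25 ± 0.903 and 7.38 ± 1.18 TPM in the colon of BALB/cJ and C57BL/6J (SD, n = 6 and 7). Of 17 other hexose transporters tested, 5 were higher and 7 lower in the duodenum/jejunum than in the ileum of BALB/cJ, and 3 and 2 in C57BL/6J, or 4 and 5 without mouse 2. The general glucose carrier gene Slc2a1 ran the other way along the gut, with means of 8.04 and 8.45 TPM in the duodenum/jejunum, 12.9 and 11.1 TPM in the ileum and 105 and 83.3 TPM in the colon. Slc5a4a, a relative of Slc5a1, had 74.9 and 62.6 TPM in the duodenum/jejunum, 24.4 and 26.5 TPM in the ileum and 0.0986 and 0.101 TPM in the colon of BALB/cJ and C57BL/6J.

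The other 4 lists had genes called in both directions between the small intestinal segments. In BALB/cJ duodenum/jejunum against ileum, 6 genes of glycolysis were higher and 4 lower of 24 tested, 3 and 5 of 15 galactose and glycogen genes, 7 and 9 of 23 transcription factors, and 3 and 4 of 15 other glucosidases and amylases. In C57BL/6J the counts were 5 and 2, 3 and 1, 6 and 6, and 6 and 1, or 8 and 3, 5 and 3, 7 and 7, and 6 and 2 without mouse 2. Pancreatic amylases sit in the last list, and 10 pancreatic acinar markers summed to 173 to 5938 TPM in BALB/cJ and 124 to 6820 TPM in C57BL/6J duodenum/jejunum, against at most 249 TPM in any ileum, so the part of attached pancreas in that list was not tested.

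Several genes of these lists differed between the strains. Fbp1, a fructose bisphosphatase of glucose synthesis, was higher in BALB/cJ in the duodenum/jejunum by 1.46 (SE 0.18, adjusted p 5.09e-05 in limma), with 65.1 to 121 TPM against 21.4 to 44.7 TPM in C57BL/6J and no overlap. In the ileum it was higher by 1.18 (SE 0.34, adjusted p 0.0283), with 12.1 to 50.3 against 6.37 to 31.2 TPM. Sord, which makes fructose from sorbitol, was lower in BALB/cJ duodenum/jejunum by 0.63 (adjusted p 0.0312) and colon by 0.48 (adjusted p 6.78e-05). The glycolytic genes Pgam1 and Eno3 were higher in BALB/cJ in all 3 tissues, Eno3 by 0.81, 0.66 and 1.27 and Pgam1 by 0.48, 0.65 and 0.52 from duodenum/jejunum to colon. Ugp2, which makes the glucose donor for glycogen, was higher in all 3 as well, by 0.48, 0.58 and 0.37.

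Of all genes, 4.7% were called higher and 4.8% lower in BALB/cJ duodenum/jejunum, 17.2% and 3.17% in the ileum, and 14.5% and 10.8% in the colon. By list, 1 of 15 other hexose transporters was higher and 1 lower in BALB/cJ duodenum/jejunum, Slc2a9 (0.63, adjusted p 0.0201 in limma) and Slc5a8 (-1.05, adjusted p 0.0271). None was called in the ileum, and in the colon 1 of 14 was higher, Slc2a1 (0.34, adjusted p 0.00611), and 1 lower, Slc5a9 (-1.09, adjusted p 0.000453). Galactose and glycogen genes had 2 higher and 1 lower of 15 in the duodenum/jejunum, 4 and 0 in the ileum and 1 and 3 in the colon. Transcription factors had 1 higher of 23, Srebf1, in the duodenum/jejunum, and 1 higher and 5 lower of 20 in the colon. The lower genes in BALB/cJ colon included Cdx1 (-0.39), Foxa1 (-0.53), Hnf4g (-0.39) and Cdx2 (-0.34), regulators of gut epithelial genes. Without C57BL/6J mouse 2 the Srebf1 call in the duodenum/jejunum was lost, and in the ileum the counts of higher genes became 3 for the fructose and glucose synthesis list and 5 for galactose and glycogen, against 1 and 4 with that mouse, and 1 of 15 other hexose transporters was called lower, against 0.

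Several members had another sugar gene as the gene most like them over the 39 libraries. By Pearson's r of log2(TPM + 1) among 15158 genes, the nearest to Treh was Khk and the nearest to Khk was Treh (r = 0.995). Slc2a2 was nearest to Khk (0.995) and Slc2a7 to Slc2a2 (0.994). Sis was nearest to Reg3a (0.996), a secreted lectin, Lct to Cyp4v3 (0.996), Mgam to the amino acid carrier gene Slc7a15 (0.995), Slc5a1 to Smim24 (0.995) and Slc2a5 to the claudin gene Cldn15 (0.991). These r are a description: 3 tissues of the same 13 mice are pooled, and the colon lies far below the small intestine for every member.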

How the data were processed

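Bulk tissue RNA of 13 mice was extracted with a PureLink kit and sequenced as ribosome-depleted Illumina TruSeq total RNA libraries, per the labels' protocols. Kallisto 0.44.0 and build GRCm38 are named in the submitters' processing notes; which transcript set served as index is not stated in the labels. The authors deposited 1 table per tissue, whose values are log2(TPM + 1) per gene; they were turned back to TPM, and each library summed to 979558 to 996230 TPM. Read depth is unknown, so no counting error can be given. There were 26 entries whose names had become dates, with at most 0.240% of a library's TPM, and these were left out.

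Differences were fitted with limma 3.58.1 (R 4.3.3, trend on) on log2(TPM + 1), a scale that understates changes of low genes, over all genes that reached 1 TPM in 6 or more libraries. Strains were compared within each tissue in 13 libraries. Tissues and interactions were fitted over all 39 libraries, across tables, because each library sums to about the same total. P-values are 2-sided and adjusted by Benjamini-Hochberg over all genes tested, with 0.05 as the threshold. On simulated data the strain fits recovered 42.9% of changes of 0.5 on the log2 scale in the duodenum/jejunum, 35.9% in the ileum and 71.0% in the colon. For changes of 1 these shares were 91.0%, 83.3% and 96.9%. Of the simulated calls 5.49%, 7.01% and 6.84% were false. These shares are averages over genes simulated with independent noise, so they do not give the recovery of a single member. In the ileum the SE was 0.66 for Lct and 0.60 for Slc2a2. Alternatives were relative log expression (RLE) scaling, a pseudocount of 0.1, no filter, each mouse left out, the mouse as a block, and an epithelial or a position score as covariate. Within a strain a number is 1 animal by its mouse label, so tissues are paired; correlations of same-mouse deviations between duodenum/jejunum and ileum ran from 0.18 to 0.36 in BALB/cJ and from -0.16 to 0.38 in C57BL/6J. Whether mice shared a litter, cage or day is not given.

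The members and lists were chosen with earlier results of these data known. Every member that passed the filter was tested in every comparison, but not every member's value is given. Of each list at most 4 called genes are named per strain comparison, those with the smallest adjusted p. Gene coordinates are from GENCODE M21 on GRCm38 and promoters from RefSeq on GRCm38.p6. Tables were handled in Python 3.11.15 with pandas 2.3.3, and plots made with matplotlib 3.10.9. Some results on genes of the lists are not reported here.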

Additional observations from a re-analysis of the deposited data

Results flagged for a closer look

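In 14 of 60 groups of a gene, tissue and strain, 1 library stood apart from the rest by a gap that was large for the group's range (Dixon's 95% criterion, which chance meets in about 1 in 20 groups). Of these, 10 came from the small intestine of C57BL/6J mouse 2. In C57BL/6J mouse 2 the duodenum/jejunum was low, with 1197 TPM of Sis where the next mouse had 1963, 651 TPM of Slc5a1 where the next had 925, and 153 TPM of Slc2a2 where the next had 273. The ileum of the same mouse was high, with 2145 TPM of Sis (next 1162), 355 of Treh (next 76.8), 1390 of Slc5a1 (next 622), 418 of Slc2a2 (next 51.7), 149 of Slc2a5 (next 43.9), 64.7 of Slc2a7 (next 12.2) and 447 of Khk (next 172). Fabp6 and Slc10a2 are at the other segment's level in both libraries, while Gkn3 follows the labels and Tmprss15 is high in both, as given above.

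BALB/cJ mouse 2 had 74.4 TPM of Khk in the ileum, where the next mouse had 145, and 0.891 TPM of Slc2a2 in the colon, where the next had 0.326. A further 2 colon values stood apart at very low levels, Slc2a7 in BALB/cJ mouse 4 (0.159 TPM, next 0.0358) and G6pc in C57BL/6J mouse 6 (0.134 TPM, next 0.0308).

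The strain difference of Mgam changed along the gut by the interaction test in limma, being 0.69 higher on the log2 scale in the duodenum/jejunum than in the colon (adjusted p 0.0172). With 1 mouse left out in turn or another setting the adjusted p ran from 0.0065 to 0.0527.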

How the results depend on the processing

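Of 505 member results under RLE scaling, a pseudocount of 0.1, no filter, a replicate block or a covariate, 480 kept direction and side of the threshold; with 1 mouse left out it was 1422 of 1495. All tissue differences in BALB/cJ, and all against the colon, kept their call. The members called between strains in the duodenum/jejunum numbered 2 under RLE scaling, and 0 with no filter, with the replicate block and with the position score, and 0 to 2 with a mouse left out. In the ileum the count was 1 with the epithelial score, and in the colon 0 with that score or the replicate block and 1 to 2 with a mouse left out. The interaction count between duodenum/jejunum and colon was 0 to 1 with a mouse left out, and members called between duodenum/jejunum and ileum in C57BL/6J numbered 6 to 10. Strain differences turned sign for Treh in the duodenum/jejunum (-0.019 with the epithelial, -0.15 with the position score), for G6pc there (-0.14, position), and in the ileum for Sis (0.14), Slc5a1 (0.038), Slc2a2 (0.33), Slc2a7 (0.089) and Khk (0.077) with the position score, Lct (-0.087 with the replicate block, which leaves out C57BL/6J mouse 7, and the same without that mouse and no block), Mgam (-0.076) and Slc2a5 (-0.13) under RLE scaling. Interactions turned sign for Lct between duodenum/jejunum and ileum (0.16, RLE), and with a pseudocount of 0.1 for G6pc between duodenum/jejunum and colon (-0.042) and Slc2a7 between ileum and colon (0.48). None of these was called, and the cause was not tested. With a mouse left out, values that turned sign ran in the duodenum/jejunum from -0.065 to 0.16 for Treh, -0.10 to 0.053 for Khk and -0.034 to 0.35 for G6pc, and in the ileum from -0.12 to 0.17 for Sis, -0.087 to 0.77 for Lct, -0.29 to 0.030 for Slc5a1, -0.47 to 0.29 for Slc2a2, -0.087 to 0.35 for Slc2a5, -0.45 to 0.062 for Slc2a7 and -0.28 to 0.067 for Khk. Interactions ran from -0.69 to 0.30 (Lct) and -0.17 to 0.26 (Khk) between duodenum/jejunum and ileum, from -0.029 to 0.38 (Lct), -0.038 to 0.12 (Slc5a1) and -0.065 to 0.35 (G6pc) between duodenum/jejunum and colon, and from -0.15 to 0.67 (Lct), -0.54 to 0.23 (Slc2a2) and -0.32 to 0.21 (Slc2a7) between ileum and colon. Between strains mice share only a number, and same-numbered mice had correlations of -0.31 to 0.21. The fit with these numbers as a block also leaves out C57BL/6J mouse 7, which has no partner. It called 1138 genes in the duodenum/jejunum, 926 in the ileum and 2927 in the colon, against 1243, 2678 and 3629 without that mouse and no block, and 1454, 3169 and 3986 with all mice. Mgam in the colon missed the threshold (-0.27, adjusted p 0.0513) but passed it without mouse 7 and no block. The mouse block within a strain changed no call but those of Sis and G6pc given above. Read depth, which would set the precision of low values, is unknown.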
